A study of Mus musculus with 6 samples.

Results

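The cysteine- and glycine-rich proteins Csrp1, Csrp2 and Csrp3 form a small family of LIM-domain proteins, and their messenger RNA was followed here in whole retinas of DBA/2J mice. The members were all probe sets that the platform annotation assigns to exactly 1 of these genes. There were 4 such probe sets of 45037 on the array apart from controls, a pair for Csrp1 and a single one each for Csrp2 and Csrp3, so 3 genes of 18193 named ones. The members were chosen by their levels per retina and their 8-month against 3-month differences on these same arrays. That contrast is therefore given for them as a description and without a test.

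The study set retinas of young mice with normal intraocular pressure beside retinas of older mice with elevated pressure. All 6 animals were female DBA/2J, an inbred strain that develops pigment dispersion and glaucoma with age, and no transgene or agent was involved. The group aged 3 months held 3 left retinas whose last pressure readings were 19.1, 15.3 and 18.2 mmHg. The group aged 8 months held a left retina and 2 right ones, at 25.3, 26.5 and 30.4 mmHg. Each retina came from a separate animal and was hybridised to its own Affymetrix array, and no other strain is among these arrays. Age and pressure cannot be told apart, and eye side overlaps with both. Rod genes marked the samples as retina. Arrestin, Sag, read 13.80 to 13.90 and rod transducin, Gnat1, 13.31 to 13.53 in every array on the log2 scale.

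LIM domains are zinc-binding folds that dock other proteins. Each Csrp protein carries a pair of them, each followed by a glycine-rich stretch, and binds the actin cross-linker alpha-actinin. Csrp1 and Csrp2 are known from smooth muscle and many other tissues, where they sit on actin filaments and, in the nucleus, can bridge serum response factor and GATA factors. Csrp3, also called muscle LIM protein, is best known from the Z-disc of heart and skeletal muscle, and it acts in the nucleus as a cofactor of the myogenic factor MyoD. It has also been described in amacrine neurons of the rodent retina and in neurons after axon injury.

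Csrp3 was higher in every older retina. Younger retinas 1 to 3 read 5.90, 5.75 and 5.85 on the log2 scale. Older retinas 1 to 3 read 7.03, 6.81 and 7.08. The ages did not overlap, and the lowest older retina stood 0.90 above the highest younger one. Means were 5.84 ± 0.07 in the younger and 6.97 ± 0.15 in the older group (SD, n = 3 each), a difference of 1.14 ± 0.10 (SE) or 2.20-fold. In whole-retina RNA, more cells of a type and more RNA per cell cannot be told apart. The spread within each age was small, at 0.15 from lowest to highest among younger retinas and 0.28 among older ones. Of the probe sets kept by the filter on low values (the third highest of the 6 levels at least 4 on the log2 scale), 36.0% had a smaller within-age SD than Csrp3.

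Csrp2 gave no such separation. Its probe set read 4.92, 5.05 and 5.77 in younger retinas 1 to 3, and 5.02, 4.83 and 5.10 in older ones. A single young retina, number 3, stood above the remaining ones, and the ages overlapped. The means were 5.25 ± 0.46 and 4.99 ± 0.14 (SD, n = 3 each), a difference of -0.26 ± 0.22 (log2, SE) or 0.834-fold. Without 3-month retina 3 the difference was -5.03e-04. Its within-age SD exceeded that of 95.1% of the kept probe sets.

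Csrp1 was dim at both ages. Its brighter probe set read 4.53, 4.34 and 4.40 in the younger retinas and 4.27, 4.39 and 4.59 in the older ones. The ages overlapped over nearly their whole range, with means of 4.42 ± 0.09 and 4.41 ± 0.16 (SD, n = 3 each) and a difference of -0.01 ± 0.11 (log2, SE). The dimmer Csrp1 probe set lay below the filter in every array, with levels of 2.95, 2.95 and 2.82 at 3 months and 2.97, 2.98 and 3.24 at 8 months. Its ages were separated by 0.02, which is less than the SD of either age, 0.07 at 3 months and 0.15 at 8 months. GCRMA, the method behind these values, presses weak signals toward a floor, so a difference at this level can be understated.

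**Figure D1:**
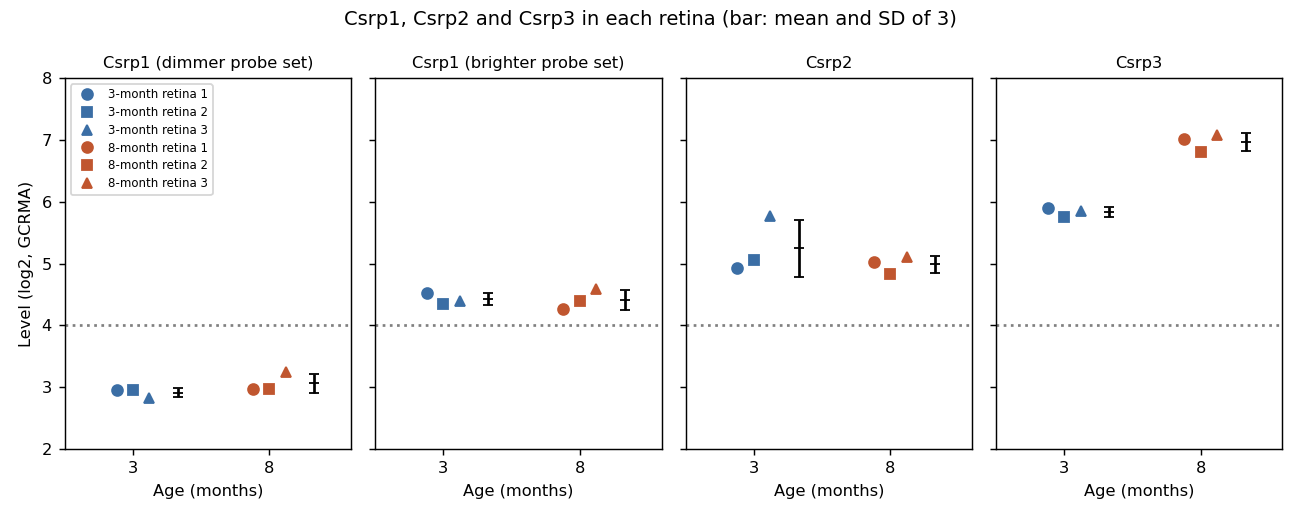
Level of each Csrp probe set on the log2 scale (vertical axis) in the 3 retinas of each age (horizontal axis, months), with marker shapes for retina numbers, a black bar for the mean and SD of 3, and a dotted line at the filter of 4. Csrp3 lies between 5.75 and 5.90 at 3 months and between 6.81 and 7.08 at 8 months, whereas the ages overlap for Csrp2 and for the brighter Csrp1 probe set.

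Across the array, differences of that size were few. The fit of age by limma covered 20973 kept probe sets, of which 30 differed by 2-fold or more. Csrp3 had the rank of 17 among all kept probe sets by the size of its difference and of 4 by the gap between the ages. Over the kept probe sets the difference had a median of -0.04 and quartiles of -0.16 and 0.08 (log2). The differences of Csrp1 and Csrp2 had ranks of 20299 and 4106 by size. The family was chosen by these same differences, so nothing is read from the ranks or from how few differences were as large. In the limma fit, 1 probe set, 0.00477% of those tested, passed a Benjamini-Hochberg adjusted p of 0.05, namely Glb1l3 of the beta-galactosidase family, and 3126, or 14.9%, had an unadjusted p under 0.05. The 3 kept Csrp probe sets were not among the adjusted calls, and because this contrast chose them nothing is read from that count. Ages that did not overlap, as for Csrp3, occurred in 21.8% of the kept probe sets, and in 6.89% with the older retinas higher.

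**Figure D2:**
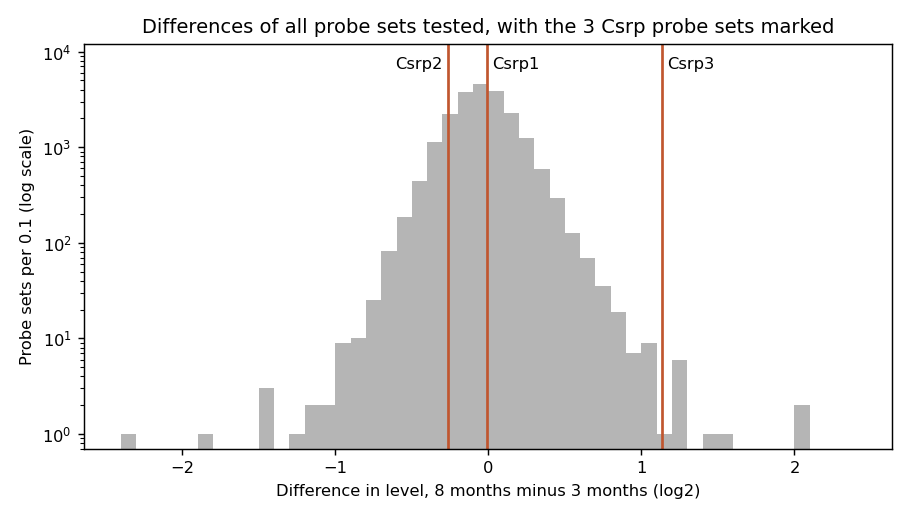
Number of probe sets (vertical axis, log scale) by difference in level between 8 and 3 months (horizontal axis, log2, bins of 0.1) for all 20973 probe sets tested, with vertical lines at the 3 kept Csrp probe sets. Csrp3 lies at 1.14 in the sparse right tail, Csrp1 at -0.01 and Csrp2 at -0.26 within the bulk.

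The sequence ahead of Csrp3 is shown because this is the member whose level differed, and because muscle genes are classically switched on through short motifs near the start. RefSeq lists a pair of start sites for Csrp3 in the reference strain (GRCm38.p6, minus strand). The windows are the 250 bases upstream of each start, chr7:48848052-48848301 and chr7:48843672-48843921. They are written 5′ to 3′ with every match to a searched motif in capitals. DBA/2J may differ from this reference.
Csrp3 start 1: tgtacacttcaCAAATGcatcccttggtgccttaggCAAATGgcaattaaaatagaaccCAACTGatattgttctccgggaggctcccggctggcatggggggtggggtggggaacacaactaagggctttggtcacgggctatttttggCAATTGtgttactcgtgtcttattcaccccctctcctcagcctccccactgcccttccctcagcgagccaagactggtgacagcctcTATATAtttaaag
Csrp3 start 2: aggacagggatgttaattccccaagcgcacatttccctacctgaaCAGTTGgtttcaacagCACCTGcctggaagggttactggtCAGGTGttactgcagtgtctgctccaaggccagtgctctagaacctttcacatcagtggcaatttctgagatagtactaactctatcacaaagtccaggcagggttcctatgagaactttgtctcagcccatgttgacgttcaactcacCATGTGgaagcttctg

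The E-box, the letters CANNTG that basic helix-loop-helix factors such as MyoD recognise, occurred 4 times in each Csrp3 window. Such a match was present in 66.2% of all 32851 promoter windows of this length, and 3.84% of them held at least 4. The Csrp1 windows, likewise for a pair of starts, held 1 E-box each. The letters TATATA lay at -13 to -8 from the first Csrp3 start and occurs in 5.25% of all windows. The remaining searches, on both strands, were for the CArG box of serum response factor (1.47% of all windows), the MEF2 site (2.92%), the MCAT element CATTCC (12.6%), the STAT site TTCNNNGAA (7.02%) and TATAAA (12.4%). They had 0 exact matches in the windows of Csrp3 and Csrp1, and near matches were not counted. No window was available for Csrp2. No matches overlapped. A match of letters is a description of the sequence and not a sign that a factor binds there.

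Since Csrp3 is a muscle protein, other muscle genes were read in the same retinas. No striated muscle gene passed the test. Of 35 listed genes of the sarcomere and its calcium supply, 34 were on the array under a single symbol, and 27 of these lay below the filter. Their readings ran from 2.24 to 4.37 on the log2 scale. Skeletal actin, Acta1, read 2.52 to 2.80 in all 6 retinas, cardiac actin, Actc1, 2.32 to 2.58, the muscle intermediate filament desmin, Des, 3.14 to 3.17, and muscle creatine kinase, Ckm, 3.60 to 4.05. Summed on the linear scale, the 34 genes gave 487 to 525 at 3 months and 441 to 502 at 8 months, ranges that overlap. In the limma fit 0 of the 7 kept genes passed the adjusted threshold and 0 an unadjusted p of 0.05. Their median log2 difference was 0.003, beside -0.06 over all 11219 kept genes. The kept gene with the smallest p, slow troponin T, Tnnt1, read 7.01 ± 0.15 and 6.71 ± 0.22 at 3 and 8 months (SD, n = 3 each).

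Genes of the Z-disc and of proteins that bind Csrp3 gave the same count of adjusted calls. Of 21 listed, 20 were on the array and 8 were kept. In limma 0 of these 8 passed the adjusted threshold, with 1 higher and 0 lower at an unadjusted p of 0.05. Over all kept genes, 0.00891% passed the adjusted threshold, and 3.58% were higher and 11.5% lower by that rule, with 402 and 1287 genes, so that few genes of a short list are called by it. The higher gene was Flnc, the muscle filamin, at 3.98, 4.75 and 3.91 in the younger retinas and 4.86, 4.83 and 4.69 in the older ones, with overlapping ages (limma adjusted p = 0.305). The main anchors of Csrp3 in muscle, telethonin, Tcap, and sarcomeric alpha-actinin, Actn2, lay below the filter at 3.51 to 3.97 and 2.34 to 2.49. Nrap, another Csrp3-binding protein of muscle, differed by 0.09, and Ldb3, a Z-disc LIM protein, by -0.20 (log2). MyoD, Myod1, and myogenin, Myog, also stayed below the filter, at 3.23 to 3.77 and 2.53 to 2.65.

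**Figure D3:**
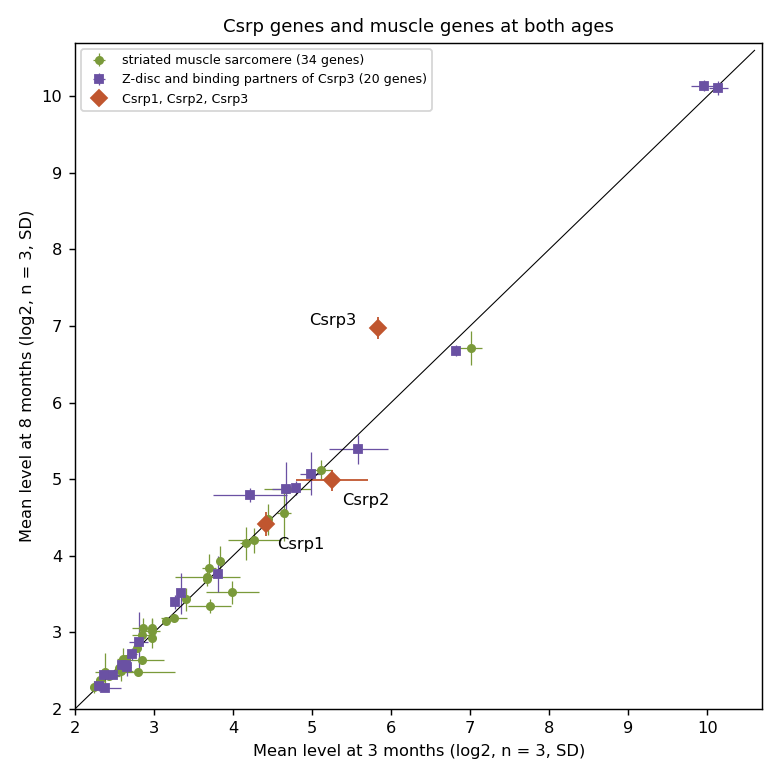
Mean level at 8 months (vertical axis, log2) against mean level at 3 months (horizontal axis, log2) for 34 sarcomere genes, 20 Z-disc and Csrp3-binding genes and the 3 kept Csrp probe sets, with error bars for the SD of 3 retinas and a line of equality. Csrp3 stands 1.14 above the line, while the kept sarcomere genes differ by -0.30 to 0.18.

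Csrp1 and Csrp2 are more at home in smooth muscle, a tissue of vessel walls. In the smooth muscle and pericyte list 8 of 18 genes were kept, and in limma 0 passed the adjusted threshold, with 0 higher and 1 lower at an unadjusted p of 0.05. The lower gene was myosin light chain kinase, Mylk, at 11.03 ± 0.16 and 10.75 ± 0.03 (log2, SD, n = 3 each; limma adjusted p = 0.291). In the retina that was highest for Csrp2, 3-month retina 3, 3 of the 8 kept genes were highest and 2 were lowest. Of all 18 genes, kept or not, 7 were highest there and 2 lowest. The mean over the 18 genes was also highest there, at 5.15 beside 4.83 to 4.98 in the remaining retinas (log2). Their linear sum there, 4212, was instead the lowest of the younger retinas, beside 4754 and 4799, with 3846 to 4031 at 8 months. Mylk and Synpo2, the brightest of the list, weigh most in that sum, so it says little of the other genes. They read 10.85 and 10.23 there, beside 11.09 and 10.72 in 3-month retina 1. Among the genes highest in 3-month retina 3 was Myocd, the serum response factor coactivator, at 5.26 beside 4.23 to 4.44. Another was Myl9, the regulatory myosin light chain of smooth muscle, at 5.23 beside 3.39 to 4.51. Smooth muscle actin, Acta2, was also highest there, at 4.98 beside 3.08 to 4.57. Like Tagln, Myh11 and Cnn1, however, Acta2 was not kept by the filter. The lowest there were the actin-binding gene Synpo2, at 10.23 beside 10.27 to 10.72, and the pericyte receptor Pdgfrb, at 5.08 beside 5.11 to 5.20. The same retina had the highest mean over 17 lens genes, at 8.10 on the log2 scale. The next highest, 8-month retina 1 at 6.95, read 5.02 for Csrp2, within the range of the remaining retinas. Lens genes did not follow Csrp3, which in 3-month retina 3 and 8-month retina 1 lay between the other values of each age. The part of lens or vessel material in the Csrp2 value was not tested.

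Serum response factor, Srf, itself read 5.88, 5.97 and 5.81 at 3 months and 5.87, 5.73 and 5.95 at 8 months. In its list of cofactors and actin partners 13 of the 16 genes on the array were kept. In limma 0 of these passed the adjusted threshold, with 0 higher and 1 lower at an unadjusted p of 0.05. The lower one was talin 2, Tln2, an adaptor between integrins and actin, at 7.35 ± 0.25 and 6.98 ± 0.04 (log2, SD, n = 3 each; limma adjusted p = 0.285). The Csrp-binding partners alpha-actinin 1 and 4, Actn1 and Actn4, differed by 0.01 and -0.14, and zyxin, Zyx, by -0.24 (log2).

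Csrp3 was also set beside 42 other LIM-domain genes, of which 31 were kept. In limma 0 passed the adjusted threshold, and at an unadjusted p of 0.05 there were 0 higher and 1 lower. The lower gene, Limd1, a cytoplasmic adaptor, read 6.79, 6.66 and 6.79 in the younger retinas and 6.56, 6.38 and 6.49 in the older ones (limma adjusted p = 0.275). Differences of the 31 genes ran from -0.33 for the zyxin relative Lpp to 0.31 for Crip1, a short LIM protein, around a median of -0.08 (log2). The value of Csrp3 was 1.14, and nothing is read from its place outside that range, since this contrast chose Csrp3. Crip1 was high in 8-month retina 1, at 5.56 beside 4.66 to 4.81 in the remaining 5 retinas. Its relative Crip2 read 4.80 to 5.51 and differed by -0.15.

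Genes of the axon injury response were read because Csrp3 has been described in injured neurons. Of 19 listed genes 13 were kept, and in limma 0 passed the adjusted threshold, with 1 higher and 2 lower at an unadjusted p of 0.05. The higher one was Socs3, a feedback inhibitor of cytokine signalling, at 4.70 ± 0.38 and 5.34 ± 0.30 (log2, SD, n = 3 each; limma adjusted p = 0.285). The lower ones were Sox11, a transcription factor of growing neurons, at -0.53, and Gadd45a, a stress response gene, at -0.36 (log2; limma adjusted p = 0.186 and 0.266). The injury factors Atf3 and Jun differed by 0.10 and -0.02, and the growth cone genes Gap43 and Basp1 by -0.17 and -0.03 (log2), while Sprr1a lay below the filter at 3.22 to 3.64. The median of the 13 genes was 0.01.

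The cholinergic amacrine list had 5 of 9 genes kept, with 0 adjusted calls in limma and 0 higher and 1 lower at an unadjusted p of 0.05. Its defining genes, the acetylcholine-synthesising enzyme Chat, the vesicular transporter Slc18a3 and the choline transporter Slc5a7, lay below the filter, at 2.53 to 2.70, 3.66 to 3.80 and 2.48 to 2.66. These probe sets therefore give no reading of those cells to set beside Csrp3. The lower gene was the adhesion receptor Megf10, at 7.65 ± 0.14 and 7.35 ± 0.17 (log2, SD, n = 3 each; limma adjusted p = 0.311), and Isl1, a transcription factor also of other retinal neurons, read 11.13 to 11.34.

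Some glial genes read higher in the older retinas, as Csrp3 did. In the astrocyte and Müller glia list all 10 genes were kept, and in limma 0 passed the adjusted threshold. At an unadjusted p of 0.05 in limma 2 were higher and 0 lower, beside 3.58% and 11.5% of all kept genes. Gfap, the filament of reactive glia, read 4.25, 4.72 and 4.27 at 3 months and 4.87, 5.83 and 5.75 at 8 months (limma adjusted p = 0.223). The water channel gene Aqp4 differed by 0.31 (log2; limma adjusted p = 0.273). The mean over the 10 genes ran from 8.65 to 8.75 at 3 months and from 8.84 to 8.90 at 8 months, and the ages did not overlap. Without Gfap, an alternative chosen after seeing the data, the mean over the other 9 genes ran from 9.14 to 9.25 and from 9.18 to 9.28, and the ages overlapped. The summed linear level of all 10 was 18172 to 20737 and 20221 to 21969. Within the older group the order differed, since 8-month retina 1 was lowest for Gfap and in the middle for Csrp3. The part of glia in the Csrp3 value was not tested.

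The other lists covered tissue that can adhere to a retina, and the photoreceptors of the retina itself. Pigment cell genes of iris, ciliary body and pigment epithelium had 6 of 12 kept, with 0 calls in limma by either rule. Their mean was highest in 3-month retina 3, at 5.12, and lowest in 3-month retina 1, at 3.66, with 3.84 to 4.88 at 8 months. Of the lens genes 10 of 20 were kept, and of the blood genes 2 of 7, with 0 calls by either rule. Photoreceptor genes had 11 of 12 kept and 0 adjusted calls in limma, with 0 higher and 4 lower at an unadjusted p of 0.05. Over all kept genes, 3.58% were higher and 11.5% lower by that rule. The 4 lower genes included the cone transducin Gnat2, at -0.44 (log2, limma adjusted p = 0.186). The 3′ minus 5′ signal of Gapdh, a measure of RNA integrity, was 0.707 to 0.751 at 3 months and 0.755 to 0.811 at 8 months on the log2 scale, a narrow separation of the ages, while that of actin overlapped at 1.62 to 1.87 and 1.71 to 1.84. Its part in the Csrp3 difference was not tested.

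Patterns across the 6 retinas were compared after each probe set's own mean was removed, and likeness was measured as the root mean square difference in log2 units. The search covered 18475 kept probe sets of other single genes. This repeats the contrast by which the family was chosen and is a description of which genes looked alike. Nearest to Csrp3 was Bub1b, a kinase of the mitotic checkpoint, at a distance of 0.140, with levels of 4.86, 4.90 and 4.76 at 3 months and 6.03, 5.60 and 5.80 at 8 months. Like Csrp3, it was lowest among older retinas in number 2. Skap2, an adaptor of immune and adhesion signalling, followed at 0.175, with 5.21, 5.30 and 5.30 against 6.15, 5.90 and 6.21. A pair of probe sets of the long noncoding RNA Malat1 came next, each at 0.23 with differences of 0.87 and 0.85, and then Ncam1, a neural adhesion molecule, at 0.249 with a difference of 0.74. Within a distance of 0.2 lay 2 probe sets for Csrp3, 561 for Csrp2 and 11740 for the nearly level Csrp1. These counts depend on how far each profile departs from level, at root mean squares of 0.576, 0.306 and 0.108. Closer to the member than a flat line were 6163 probe sets for Csrp3, 6344 for Csrp2 and 2082 for Csrp1.

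The nearest probe sets to Csrp2 shared its high value in 3-month retina 3. Nrcam, a neural adhesion molecule, was nearest at 0.0427 and read 7.23 there, beside 6.36 to 6.65 in the remaining retinas. Sco2, a copper chaperone of the respiratory chain, read 6.07 beside 5.20 to 5.36. Slc4a5, a bicarbonate transporter, Aktip and Zc3h13 completed the nearest 5. The nearest to Csrp1 were Chd5, Pprc1, Neurod2, Add1 and Acss2, at distances of 0.0232 to 0.0338.

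**Figure D4:**
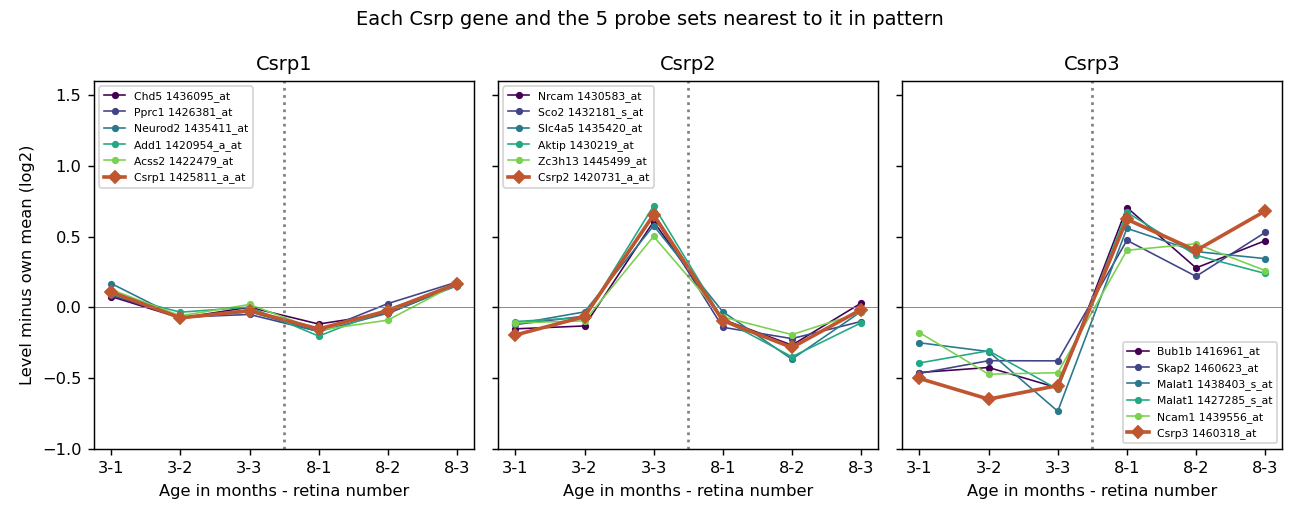
Level minus its own mean (vertical axis, log2) in each of the 6 retinas (horizontal axis, age in months and retina number) for Csrp1, Csrp2 and Csrp3 (thick lines with diamonds) and the 5 nearest probe sets of each. Lines only join values of the same probe set. Csrp3 and its neighbours step up between the ages, while Csrp2 and its neighbours share a peak in 3-month retina 3.

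The Csrp3 difference ran from 1.08 to 1.22 (log2) over other scalings, eye side as a covariate and fewer arrays. Filters, the replicate block and the trended variance cannot change the mean difference of a kept probe set, which stayed at 1.14. The left eyes give a comparison within 1 eye side, where 8-month retina 1 at 7.03 stood above the younger retinas at 5.75 to 5.90. The fit with eye side as a covariate gave 1.19. It is the same comparison, of 1 older retina with the younger mean, since the other older retinas are right ones. Csrp2 ranged from -0.43 to -5.03e-04 and Csrp1 from -0.16 to 0.07, with both signs for Csrp1.

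**Figure D5:**
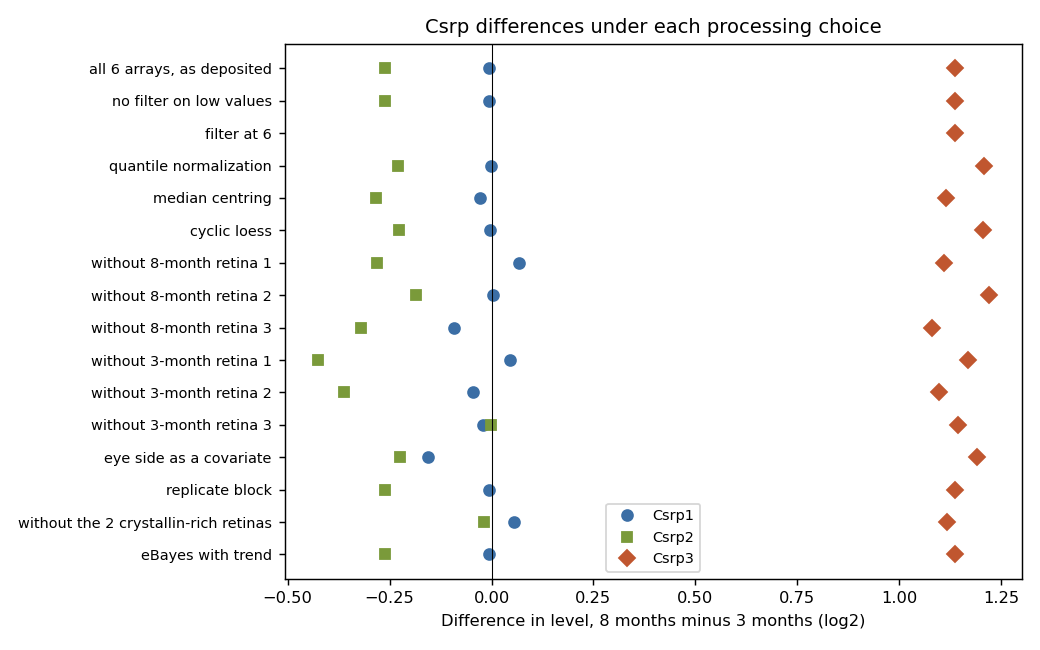
Difference in level between 8 and 3 months (horizontal axis, log2) for Csrp1, Csrp2 and Csrp3 under each processing choice (vertical axis), where 1 choice was changed at a time. Csrp3 stays between 1.08 and 1.22, Csrp2 reaches -5.03e-04 without 3-month retina 3, and Csrp1 lies around 0.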

How the data were processed

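The deposited values are log2 levels per probe set, made by the authors in R 1.9.0 by GCRMA 1.1.0 (per the submitters' processing notes) from column-purified retinal RNA that was amplified and labelled with biotin, per the labels' protocols. Options, scan dates and detection calls are not given in the sources used here. Of 45101 probe sets, 64 are Affymetrix controls and were dropped. The filter kept a probe set whose level reached 4 in at least 3 retinas. Genes were named from the platform annotation, and the 3 Csrp gene identifiers matched RefSeq of GRCm38.p6. For counts and limma results a listed gene was read by its brightest kept probe set. Levels, list means and linear sums used its brightest probe set, kept or not.

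Ages were compared with limma 3.58.1 in R 4.3.3 (lmFit, eBayes, two-sided, Benjamini-Hochberg over all kept probe sets, threshold 0.05), tested on simulated data. The SE comes from this fit. Fold changes are back-transformed log2 differences. Precision is limited by the number of arrays, since the smallest two-sided p of an exact permutation test is 0.1 here. The family, the gene lists and the alternatives were chosen with earlier results of these data known. Named genes were the members, up to 4 genes of smallest p per list and the 5 nearest patterns per member, and further list genes were named for their role after their values were seen. The motifs were likewise chosen after the data were seen. The lists cover sarcomere, Z-disc, smooth muscle, serum response factor, LIM-domain, axon injury, cholinergic amacrine, lens, pigment cell, photoreceptor, glia and blood genes. Alternatives were other filters, scalings, covariates and a trended variance, the replicate block, and fewer arrays. Sequences are from RefSeq (GRCm38.p6). The quantitative PCR and C57BL/6J retinas of the study were not analysed here.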

Additional observations from a re-analysis of the deposited data

How the results depend on the processing

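With 3 arrays per age the precision is limited, and weak signals near the GCRMA floor limit what can be read of Csrp1. The count of probe sets past the limma adjusted threshold was 1 with all arrays and 0 with no filter, with eye side as a covariate, with the replicate block and without the 2 crystallin-rich retinas. It was 2 with the filter at 6, after quantile normalization and after cyclic loess, with Csrp3 beside Glb1l3 in each case, from which nothing is read since this contrast chose Csrp3. Leaving out each retina in turn gave 0 to 0. At an unadjusted p of 0.05 the count was 3126, against 2059 with eye side, 1507 without the crystallin-rich retinas, and 1920 to 4096 without single retinas. The split was 971 higher and 2155 lower as deposited, 1388 and 1403 after quantile normalization, and 1442 and 1372 after cyclic loess.

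Without single retinas the difference (log2) was 1.08 to 1.22 for Csrp3, -0.43 to -5.03e-04 for Csrp2 and -0.09 to 0.07 for Csrp1. With eye side as a covariate it was -0.16 for Csrp1. That fit sets the only left older retina, 8-month retina 1 at 4.27, against the younger mean of 4.42. Same-numbered retinas of the ages are different animals and shared only a number: their deviations correlated at -0.141, 0.064 and -0.283 (Pearson's r across probe sets, which are not independent). The replicate block cannot change a mean difference, since each age holds every number. With it, the limma count at an unadjusted p of 0.05 was 2728.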

Other observations

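Csrp3 levels (log2) can be set beside the last pressure of each eye. At 3 months it read 5.75 at 15.3 mmHg, 5.85 at 18.2 mmHg and 5.90 at 19.1 mmHg. At 8 months it read 7.03 at 25.3 mmHg, 6.81 at 26.5 mmHg and 7.08 at 30.4 mmHg. The order followed pressure in the younger group and not in the older one, and 3 retinas per age are too few to test a relation.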
